A study of Mus musculus with 4 samples.

Results

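The genes described here make up the protein folding and export machinery of the endoplasmic reticulum (ER) together with the unfolded protein response (UPR) that adjusts it. They were chosen by name, as probe sets whose only gene symbol is 1 of 38 listed genes, with the probe set of the highest mean over all arrays standing for its gene. Of the 38 genes, 37 were measured in this way, out of 17097 genes in all, and Sec61g had no such probe set. Expression was measured as total RNA of 4T1Ch9 tumors on Affymetrix MG-430PM arrays, and the authors deposited log2 values made with RMA. 4T1Ch9 is a cherry-tagged triple-negative breast cancer (TNBC) line of Balb/c origin. Both groups were female Balb/c wild-type mice, 6 to 8 weeks of age, which carried tumors from 50000 cells placed in the mammary fat pad. After 10 days of growth, 1 group received trametinib, which inhibits the kinases MEK1 and MEK2 (MEKi), in a daily dose of 1 mg/kg, and the other received vehicle (a PEG and solutol mixture), both for 7 days. Each group has 2 arrays. The sources do not state whether these came from separate mice, and the p-values therefore cover no more than the spread between arrays, part of which may be technical. Tumors were analysed whole, so the RNA includes that of host cells. Precision is limited by the number of arrays.

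Secreted and membrane proteins enter the ER through the Sec61 channel, lose their signal peptide, are glycosylated, and fold with the help of chaperones and protein disulfide isomerases. Proteins that do not fold are returned to the cytosol and destroyed (ER-associated degradation, ERAD), and those that do are packed into COPII vesicles for the Golgi. When unfolded protein builds up, the membrane sensors IRE1 (encoded by Ern1), ATF6 and PERK start the UPR, in which the transcription factors XBP1 and ATF6 raise the genes of this machinery. Plasma cells, which secrete antibody, are known for very high levels of it.

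Arrays of 1 label were not the most alike. Across 45037 probe sets (no independent replicates), MEKi 1 correlated best with vehicle 2 (Pearson's r of 0.992) and MEKi 2 with vehicle 1 (0.978), whereas r was 0.927 between both MEKi arrays and 0.959 between both vehicle arrays. Lymphocyte genes followed the same division, with a median log2 expression of 11 B cell genes of 9.75 (MEKi 1), 4.18 (MEKi 2), 4.19 (vehicle 1) and 9.51 (vehicle 2). The array 25th percentiles were between 3.85 and 3.88, so the lower readings were close to the floor. Krt8, a keratin of the epithelial tumor cells, read 10.54, 12.11, 12.92 and 11.75 in the same order. Some other epithelial genes were lowest in MEKi 2, such as Epcam with 9.06, 6.54, 8.79 and 9.23 and Krt19 with 8.91, 4.52, 9.36 and 9.42, with Krt19 close to the floor there. The median of 16 tumor epithelial genes was 6.63, 6.46, 7.76 and 7.39. An exchange of labels between arrays is possible and cannot be settled from these data, so each MEKi minus vehicle value holds only as far as the labels do. No label was changed, and every array is named by its label. In bulk RNA, fewer cells of a type and less RNA per cell cannot be told apart.

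The promoters of several members carry the DNA elements through which the UPR acts. RefSeq promoter windows of 300 bases (250 before the start site and 50 after it, build GRCm38.p6) were matched by symbol for 27 of the 37 members and searched on both strands for exact matches, with a gene counted if any of its windows held one. The ER stress response element (ERSE), which reads CCAAT, 9 bases of any kind and then CCACG, is bound by NF-Y at its first letters and by ATF6 or XBP1 at its last. It was found in 8 of the 27 (29.6%), against 37 of 27025 genes with a window (0.137%), which include the members. The 8 were Hspa5, Hsp90b1, Calr, Canx, Dnajc3, Creld2, Pdia6 and Syvn1, and Hsp90b1 had 2 sites. Members were listed by name as genes of this pathway, so the shares describe the list and no test is given. The window of Hspa5, which encodes the chaperone BiP, is printed as the model case. It covers the 250 bases before the start site on the forward strand at chr2:34771840-34772089. The element is in capitals, 65 to 47 bases before the start.
Hspa5: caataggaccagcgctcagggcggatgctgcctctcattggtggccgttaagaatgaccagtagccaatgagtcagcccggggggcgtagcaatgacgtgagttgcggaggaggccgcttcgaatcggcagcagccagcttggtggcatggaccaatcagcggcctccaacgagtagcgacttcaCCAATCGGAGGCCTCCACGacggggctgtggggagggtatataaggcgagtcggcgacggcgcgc

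Shorter stretches of 49 bases show how the same element sits in other members. Canx and Pdia6 are printed first because, like Hspa5, they were higher in MEKi 2 and in vehicle 1. Creld2, Syvn1, Dnajc3 and Calr were higher in MEKi 1 and vehicle 2. All are written 5′ to 3′ on the strand of the gene, with the element in capitals. In Creld2 and Calr it lies on the opposite strand, so the capitals read as its reverse complement.
Canx: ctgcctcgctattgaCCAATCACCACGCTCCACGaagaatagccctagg
Pdia6: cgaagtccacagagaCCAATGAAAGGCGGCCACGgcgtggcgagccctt
Creld2: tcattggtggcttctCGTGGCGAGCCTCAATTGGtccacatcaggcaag
Syvn1: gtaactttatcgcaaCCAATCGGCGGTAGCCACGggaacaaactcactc
Dnajc3: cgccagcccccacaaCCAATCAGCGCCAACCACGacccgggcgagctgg
Calr: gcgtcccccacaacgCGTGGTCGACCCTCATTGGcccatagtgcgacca
They lie at chr11:50325785-50325833 (reverse strand), chr12:17266476-17266524 (forward), chr15:88819505-88819553 (forward), chr19:6046517-6046565 (forward), chr14:118937812-118937860 (forward) and chr8:84847060-84847108 (reverse). The element began 145 bases before the start in Canx, 98 in Pdia6, 126 in Creld2, 44 in Syvn1, 105 in Dnajc3 and 162 in Calr, counted from its end farther from the start.

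The related element ERSE-II reads ATTGG, 1 base of any kind and then CCACG, and so shares its last letters with ERSE. It was found in Herpud1 and Dnajb11, 2 of 27 members (7.41%), against 12 genes in all (0.0444%). The Herpud1 site is shown because this gene was one in which the arrays lay far apart. It is on the forward strand at chr8:94386362-94386402, 52 to 42 bases before the start.
Herpud1: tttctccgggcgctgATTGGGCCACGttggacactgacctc
The UPR element (UPRE, TGACGTGG), an XBP1 site whose last letters, CGTGG, are the reverse complement of CCACG, was found in Sec24d alone among the members (3.70%), against 193 genes in all (0.714%). At least 1 of the 3 elements was present in 11 of 27 members (40.7%), in 9 of 78 other measured genes of the pathway (11.5%) and in 239 of all genes (0.884%). An exact match is a description of the letters and does not show that a factor binds there.

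The comparison of MEKi with vehicle asks which genes change in tumors under MEK inhibition. By label, it gave no call for any member. A call needed a fold change over 1.5, an unadjusted p under 0.05 and a Benjamini-Hochberg adjusted p under 0.1 from limma (two-sided, adjusted over all probe sets). Called were 0 of 37 members and 0 of 45037 probe sets (0.0%), with a lowest adjusted p of 1. Without adjustment, 406 probe sets and 0 members had a p under 0.05, and the lowest unadjusted p of a member was 0.268 (Ern1). The fitted log2 differences of the members, MEKi minus vehicle, ran from −0.46 (Sec11c) to 0.25 (Atf6), 14 above and 23 below 0. Their median was −0.10, and that of all genes was 0.01. The sign of the member median depended on single arrays. It was −0.39 without MEKi 1, 0.22 without MEKi 2, −0.32 without vehicle 1 and 0.15 without vehicle 2. Centring each array on tumor epithelial genes raised all genes in the arrays labelled MEKi by 1.03. It called 14 of 37 members and 28973 of 45037 probe sets, so these calls were not particular to the members.

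In nearly all members, label means differed less than single arrays of 1 label did. Both arrays labelled MEKi lay above both vehicle arrays in 0 members, where 11.0% of all genes did so, and below them in 0 members, where 10.2% did. In 36 of 37 members (97.3%) the difference by label was smaller than both the distance between the MEKi arrays and that between the vehicle arrays, against 58.0% of all genes. The exception was Pdia3, whose single probe set read low (4.87 to 5.83). The difference by label is between means of 2 arrays and these distances are between single arrays, so they are unlike measures. Member medians between single arrays of unlike label were 0.44 (MEKi 1 minus vehicle 1) and −0.56 (MEKi 2 minus vehicle 2). The crossed pairs gave −0.04 (MEKi 1 minus vehicle 2) and −0.07 (MEKi 2 minus vehicle 1). Within a label they were 0.53 (MEKi 1 minus MEKi 2) and 0.46 (vehicle 2 minus vehicle 1). The distance between the highest and the lowest array had a median of 0.74 over the members and 0.55 over all genes.

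**Figure D1:**
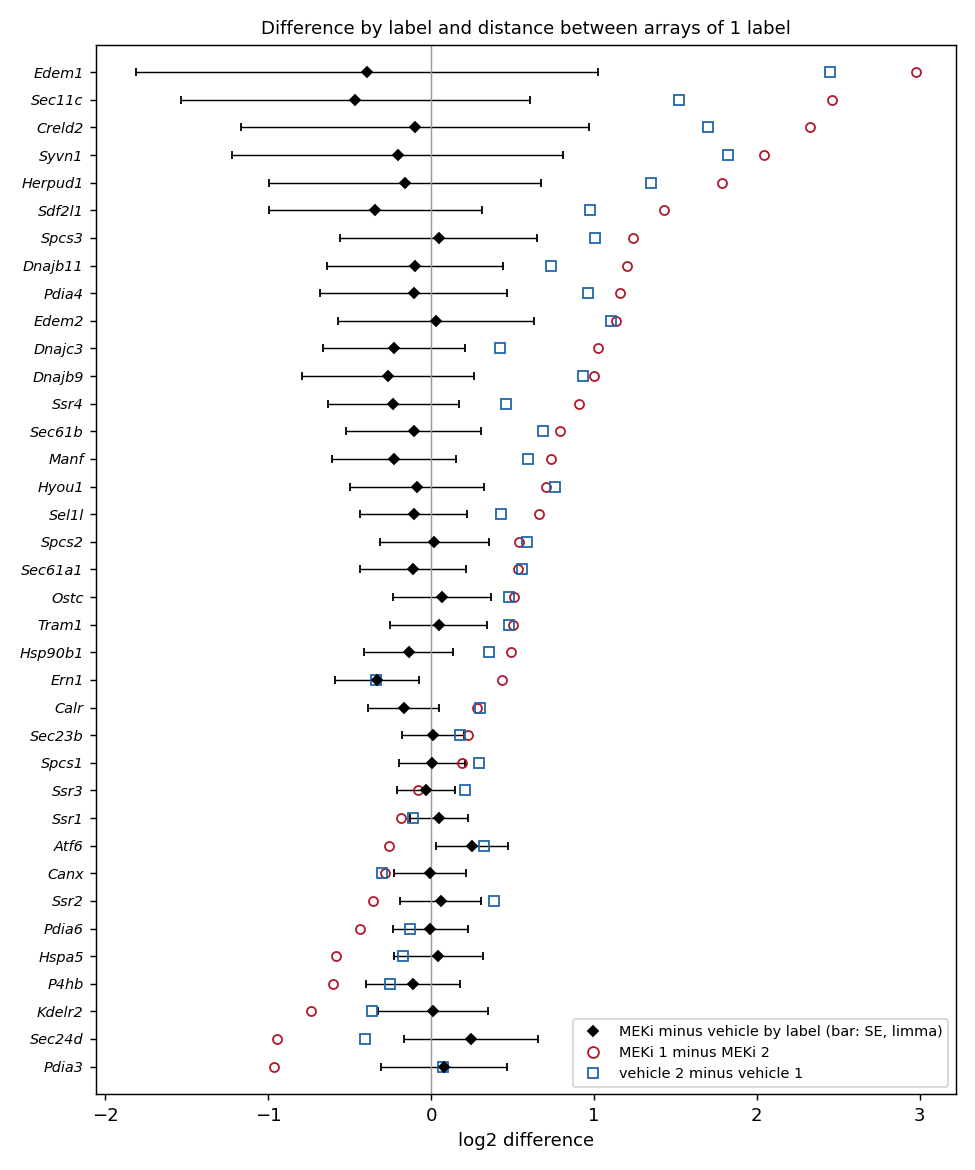
Log2 differences (horizontal axis) of the 37 members (vertical axis), with the fitted difference MEKi minus vehicle by label as a black diamond (bar, SE from limma), MEKi 1 minus MEKi 2 as a red circle and vehicle 2 minus vehicle 1 as a blue square. The black diamonds lie between −0.46 and 0.25, whereas both distances within a label reach beyond 2 for Edem1.

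The most common order put MEKi 1 and vehicle 2 on top. These were the 2 highest arrays in 25 of 37 members, where 29.5% of all genes had them so. MEKi 2 and vehicle 1 were the 2 highest in 7 members, which were Hspa5, Canx, Pdia6, P4hb, Ssr1, Sec24d and Kdelr2, where 30.0% of all genes had them so. MEKi 2 and vehicle 2 were highest in Pdia3, Ssr2, Ssr3 and Atf6, and MEKi 1 and vehicle 1 in Ern1. These counts describe 4 arrays, and the members were chosen with such an order known, so no test is given.

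The 4 differences between a MEKi and a vehicle array went in unlike directions. MEKi 1 minus vehicle 1 had a member median of 0.44 (all genes 0.01), with 7 members over 2-fold higher (6.67% of all genes) and 0 over 2-fold lower (8.74%). MEKi 2 minus vehicle 2 had a median of −0.56 (all genes 0.02), with 0 members over 2-fold higher (8.25%) and 11 over 2-fold lower (9.15%). These 2 differences thus had opposite signs, and the array numbers are not known to pair the arrays. MEKi 1 minus vehicle 2 had a median of −0.04, with 0 members over 2-fold higher (0.287%) and 0 lower (0.831%). MEKi 2 minus vehicle 1 had a median of −0.07, again with 0 higher (2.26%) and 0 lower (4.34%). Within the labels, 12 members were over 2-fold higher in MEKi 1 than in MEKi 2 (9.55% of all genes) and 0 lower (10.3%). In the same way 7 members were over 2-fold higher in vehicle 2 than in vehicle 1 (5.84%) and 0 lower (5.81%). Each of these differences is between 1 array and another, and they share arrays.

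**Figure D2:**
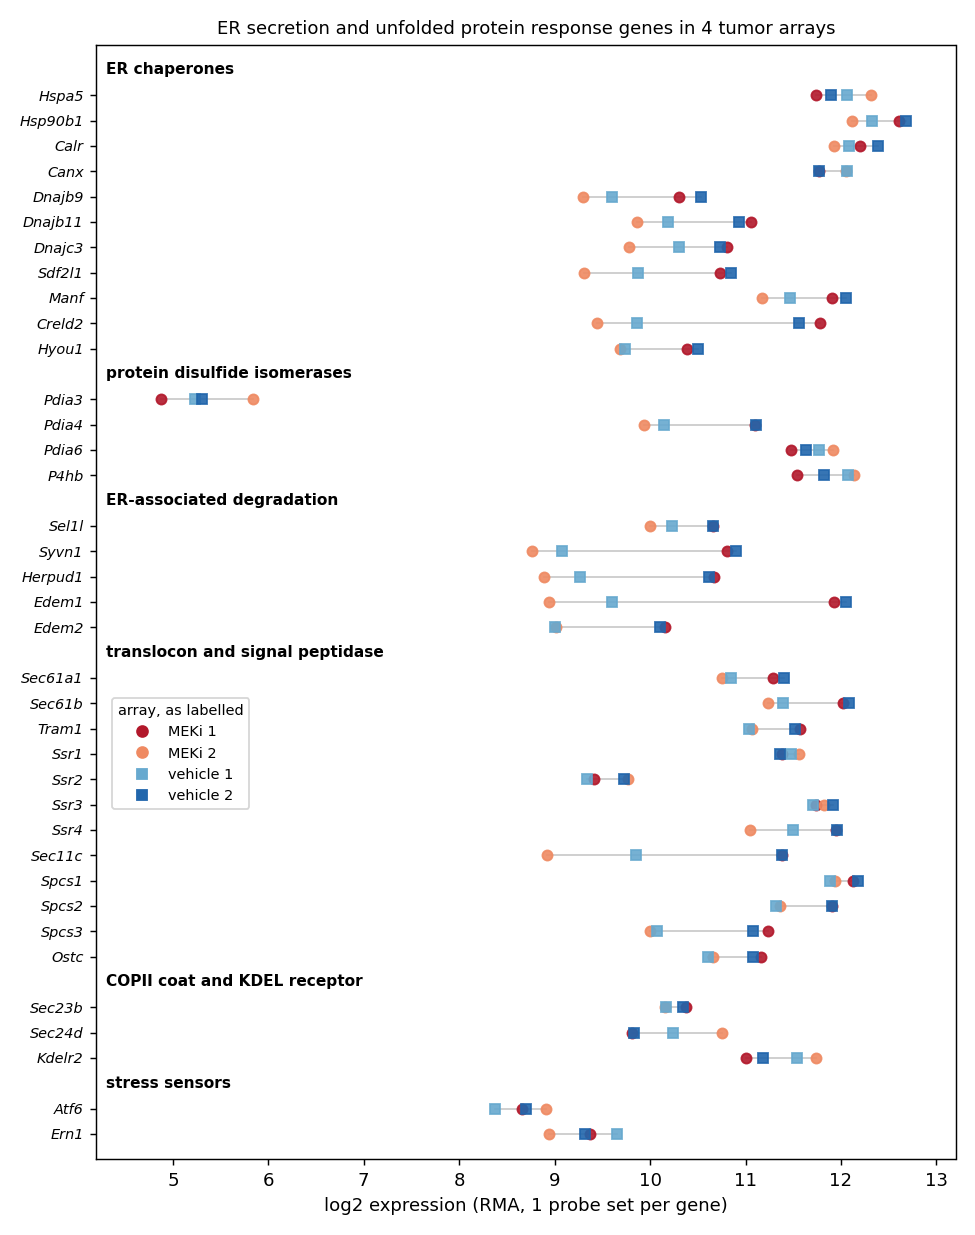
Log2 expression (RMA, horizontal axis) of the 37 members, grouped by role, with 1 point per array (circles, arrays labelled MEKi; squares, arrays labelled vehicle). MEKi 1 and vehicle 2 sit together on the right in 25 members, most widely apart from the other arrays in Edem1, and levels should be compared within a gene only.

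Of the role groups, the 5 ERAD members lay furthest apart. Their distance between highest and lowest array had a median of 1.79. For the 13 other ERAD genes it was 0.51 and for all genes 0.55, although Derl3, 1 of the 13, reached 4.81. In all 5 ERAD members MEKi 1 and vehicle 2 were the 2 highest arrays. The same held in 9 of the 13 other ERAD genes (69.2%), against 29.5% of all genes. The median of the 5 members was 10.67 (MEKi 1), 8.95 (MEKi 2), 9.26 (vehicle 1) and 10.66 (vehicle 2). Edem1, which trims mannose from misfolded glycoproteins and so marks them for removal, read 11.93, 8.95, 9.61 and 12.05 in that order. Its low arrays did not reach the high ones, and its distance of 3.11 between highest and lowest array is at the 97.5th percentile of all genes. By label the arrays interleaved, and the fitted difference was −0.39 (SE 1.42, adjusted p of 1 in limma, 95% interval −4.45 to 3.66). A further probe set of Edem1 had the same order, with 10.85, 9.31, 9.59 and 11.08. Syvn1, the HRD1 ubiquitin ligase of the pathway, read 10.81, 8.76, 9.08 and 10.90. Its partner Sel1l, the adaptor of that ligase, lay closer together at 10.66, 10.00, 10.23 and 10.66. Herpud1, a membrane protein that joins the ligase complex and is a classic UPR target, read 10.67, 8.88, 9.26 and 10.61. High and low arrays of Herpud1 were again separated within each label, so that the difference by label was −0.16 (SE 0.83, adjusted p of 1). Edem2, an enzyme of the first mannose trimming step, read 10.15, 9.02, 9.0 and 10.11, with a difference by label of 0.03 (SE 0.60, adjusted p of 1).

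Of 11 chaperones, 9 were highest in MEKi 1 and vehicle 2, and Hspa5 and Canx were highest in MEKi 2 and vehicle 1. Hspa5 (BiP), the main chaperone of the ER lumen and the regulator of the UPR sensors, read 11.73 (MEKi 1), 12.31 (MEKi 2), 12.07 (vehicle 1) and 11.89 (vehicle 2). It was therefore lowest in MEKi 1 and highest in MEKi 2, and the labels overlapped. The difference by label was 0.04 (SE 0.27, adjusted p of 1 in limma, 95% interval −0.74 to 0.82), and a second Hspa5 probe set kept the order with 11.37, 12.06, 11.80 and 11.55. Canx, a membrane lectin that holds new glycoproteins for folding, read 11.77, 12.05, 12.07 and 11.77. Calr, its soluble relative, read 12.20, 11.92, 12.08 and 12.38. Canx and Calr thus had opposite orders, over distances of 0.30 and 0.46 that are smaller than those of the ERAD members. Hsp90b1, the HSP90 of the ER, read 12.61, 12.12, 12.32 and 12.68, with MEKi 1 and vehicle 2 on top.

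The remaining chaperones and co-chaperones were higher in MEKi 1 and vehicle 2 on their brightest probe sets. Creld2, an ER protein induced by stress, was the most spread of them with 11.78 (MEKi 1), 9.45 (MEKi 2), 9.86 (vehicle 1) and 11.56 (vehicle 2). Sdf2l1, which works in a chaperone complex with BiP, read 10.73, 9.30, 9.87 and 10.85. Both labels held 1 high and 1 low array, and the difference by label of Sdf2l1 was −0.34 (SE 0.65, adjusted p of 1), the lowest of the chaperones. The J-domain co-chaperones of BiP followed the same order. Dnajb9 read 10.30, 9.30, 9.60 and 10.53, and Dnajb11 read 11.06, 9.86, 10.19 and 10.93. Dnajc3 read 10.80, 9.78, 10.30 and 10.73 on its brightest probe set. The order of Dnajc3 rests on that probe set, since on all 4 further ones MEKi 1 was lower than vehicle 1, for example 10.29, 10.25, 10.51 and 10.42. Hyou1, which exchanges nucleotide on BiP, read 10.39, 9.68, 9.74 and 10.50. Manf, a small protein released under ER stress, read 11.90, 11.17, 11.46 and 12.06.

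The protein disulfide isomerases, which form and rearrange the disulfide bonds of secreted proteins, did not share an order. Pdia4 read 11.10 (MEKi 1), 9.94 (MEKi 2), 10.14 (vehicle 1) and 11.11 (vehicle 2), in the order of most chaperones. P4hb, the founding member of the family and also a subunit of the collagen prolyl hydroxylase, went the other way with 11.54, 12.14, 12.08 and 11.83. Pdia6 did likewise with 11.48, 11.92, 11.77 and 11.64. The difference by label of P4hb was −0.11 (SE 0.29, adjusted p of 1 in limma), the lowest of the group. Pdia3, the partner of calnexin and calreticulin, was represented by a single probe set with 4.87, 5.83, 5.23 and 5.31. Its values lay around the array medians (4.98 to 5.14), below the medians of all genes (6.75 to 6.85) and far below the other isomerases. How well this probe set measures Pdia3 was not tested. The difference by label of Pdia3 was 0.08 (SE 0.39, adjusted p of 1), the highest of the group.

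Translocon and signal peptidase genes showed smaller distances in the same order, with 9 of 12 highest in MEKi 1 and vehicle 2. Sec61b, a subunit of the Sec61 channel, read 12.02 (MEKi 1), 11.23 (MEKi 2), 11.39 (vehicle 1) and 12.08 (vehicle 2). The labels overlapped, and its difference by label was −0.11 (SE 0.42, adjusted p of 1 in limma). Sec61a1, which forms the pore, read 11.29, 10.75, 10.85 and 11.41, and Tram1, which assists the entry of some proteins, read 11.57, 11.07, 11.04 and 11.51. The widest of the group was Sec11c, a catalytic subunit of the signal peptidase, with 11.38, 8.92, 9.86 and 11.38. MEKi 1 and vehicle 2 agreed to 2 decimals there, and the difference by label was −0.46 (SE 1.07, adjusted p of 1), the lowest of all members. The other subunits of the signal peptidase were less far apart. Spcs3 read 11.24, 10.00, 10.07 and 11.08, Spcs2 read 11.91, 11.36, 11.32 and 11.91, and Spcs1 read 12.13, 11.94, 11.88 and 12.18. Ostc, a subunit of the oligosaccharyltransferase that attaches sugar chains, read 11.16, 10.66, 10.60 and 11.08, with a difference by label of 0.07 (SE 0.30, adjusted p of 1).

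The subunits of the translocon-associated protein (TRAP) complex lay close together in 3 of 4 cases. Ssr1 read 11.38 (MEKi 1), 11.56 (MEKi 2), 11.47 (vehicle 1) and 11.36 (vehicle 2), Ssr2 read 9.41, 9.77, 9.34 and 9.73, and Ssr3 read 11.74, 11.82, 11.71 and 11.91. Ssr4 stood apart with 11.95, 11.05, 11.50 and 11.96, in the order of the translocon genes. A further probe set of Ssr1 had that order as well, with 10.15, 9.74, 9.83 and 10.26, so the order of Ssr1 depended on the probe set.

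Of the transport genes, Sec23b had MEKi 1 and vehicle 2 on top, and Sec24d and Kdelr2 had MEKi 2 and vehicle 1. Sec23b, of the inner COPII coat, read 10.38 (MEKi 1), 10.15 (MEKi 2), 10.17 (vehicle 1) and 10.34 (vehicle 2), with a difference by label of 0.01 (SE 0.19, adjusted p of 1 in limma). Sec24d, which selects cargo in the coat, read 9.81, 10.76, 10.24 and 9.83, and its difference by label was 0.25 (SE 0.41, adjusted p of 1). Its highest array was MEKi 2 and its lowest MEKi 1. Kdelr2, the receptor that returns escaped chaperones to the ER, had the same order with 11.01, 11.74, 11.54 and 11.18, and a difference by label of 0.01 (SE 0.34, adjusted p of 1).

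On its brightest probe set, neither sensor among the members had the order of most chaperones. Atf6 read 8.66 (MEKi 1), 8.91 (MEKi 2), 8.37 (vehicle 1) and 8.70 (vehicle 2), with a difference by label of 0.25 (SE 0.22, adjusted p of 1 in limma), the highest of all members. A further Atf6 probe set had MEKi 1 and vehicle 2 on top, with 8.33, 8.18, 7.58 and 8.31. Ern1 read 9.37, 8.94, 9.66 and 9.32, with a difference by label of −0.33 (SE 0.26, adjusted p of 1). Its highest array was vehicle 1, and its lowest was MEKi 2. These are transcript levels, and both proteins are switched on by cleavage or phosphorylation, which the arrays do not measure.

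Members with an ERSE fell in both of the common orders. Of the 8 members with an ERSE, the 2 highest arrays were MEKi 1 and vehicle 2 in 5 (Calr, Creld2, Dnajc3, Hsp90b1 and Syvn1) and MEKi 2 and vehicle 1 in 3 (Canx, Hspa5 and Pdia6). Of the 19 with a window but no ERSE, it was 13 and 3. An exact ERSE match, on either strand, thus lay before both Creld2, in which MEKi 1 exceeded MEKi 2 by 2.33, and Hspa5, in which the difference was −0.58. Only exact matches within the windows were counted, so members without one may still carry such an element. Any part of the elements in these orders was not tested. Both ERSE-II genes, Herpud1 and Dnajb11, were higher in MEKi 1 and vehicle 2, and Sec24d with its UPRE was lower there.

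**Figure D3:**
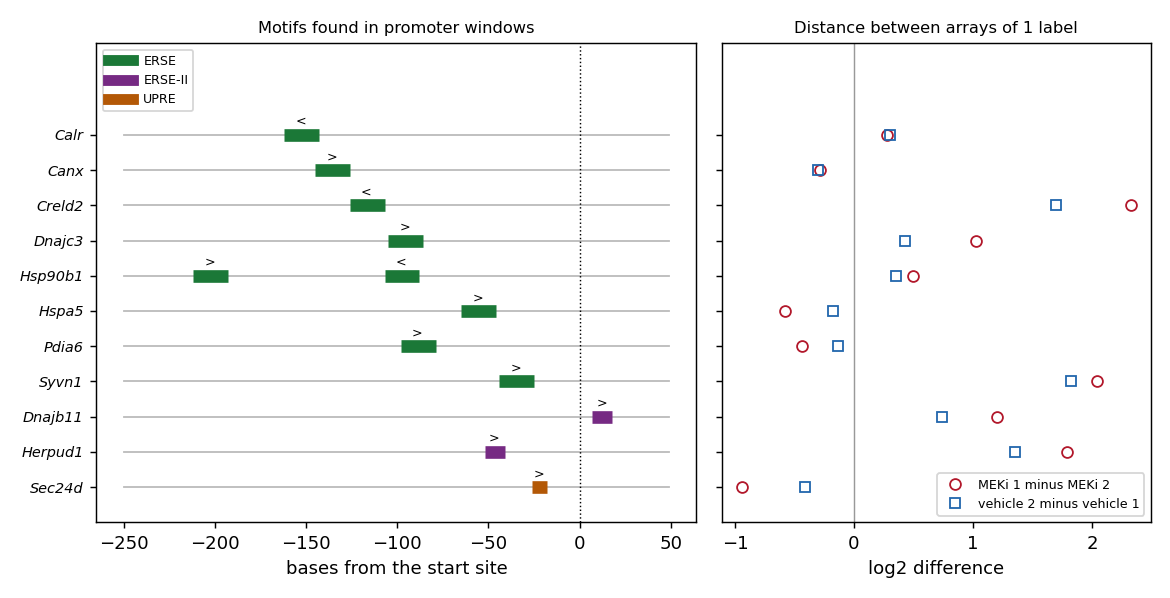
Left, positions of ERSE, ERSE-II and UPRE matches in the promoter windows of 11 members, in bases from the start site (dotted line; arrows give the strand). Right, log2 differences between the arrays of 1 label for the same genes, which lie on both sides of 0 for genes with an ERSE (2.33 for Creld2 and −0.58 for Hspa5, MEKi 1 minus MEKi 2).

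Outside the members, 87 further genes of the pathway were measured, and 0 were called by label. Their differences by label ran from −0.72 (Creb3l1) to 0.49 (Fkbp11), 39 above and 48 below 0, with a median of −0.02. MEKi 1 and vehicle 2 were the 2 highest arrays in 33 of them (37.9%) and MEKi 2 and vehicle 1 in 26 (29.9%), beside 29.5% and 30.0% of all genes. Of 13 genes of the UPR transcription factors and the PERK arm, Mbtps1, the protease that cleaves ATF6, had the highest difference by label at 0.29, and Creb3l1, an ER-bound transcription factor, had the lowest. Of 24 other folding and glycosylation genes the extremes were Fkbp11 and Fkbp2 (−0.54), both prolyl isomerases. Of 13 other ERAD genes they were Derl1 (0.14) and Derl2 (−0.26), and of 10 other translocation genes Tram2 (0.22) and Srprb (−0.29). Of 27 other transport genes they were Kdelr3 (0.41) and Tmed3 (−0.31).

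A few of these genes, named after their values were seen, show the range of orders. Xbp1, the transcription factor that IRE1 activates by splicing its mRNA, read 12.70 (MEKi 1), 11.91 (MEKi 2), 12.19 (vehicle 1) and 12.60 (vehicle 2). Derl3, a channel component of ERAD, read 9.66, 4.84, 5.17 and 9.45, and Ero1b, an oxidase that recharges the disulfide isomerases, read 10.72, 8.04, 8.46 and 10.30. Both Derl3 and Ero1b carry an ERSE, the only ones among 78 measured pathway genes outside the members with a window (2.56%). Eif2ak3, which encodes PERK, had the same order at 9.27, 7.76, 8.01 and 9.14. Of the transcription factors of the PERK arm, Atf4 was nearly level at 11.24, 11.37, 11.22 and 11.36. Ddit3, which encodes CHOP, had MEKi 1 and vehicle 2 on top by a small distance, at 8.31, 7.92, 8.07 and 8.35. Trib3, a target of that arm, had the reverse order with 5.17, 7.68, 7.71 and 6.27. Kdelr3, a relative of Kdelr2, likewise read 7.35, 10.37, 9.15 and 7.75.

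Lymphoid markers, among them those of antibody-secreting cells, had the order of 25 of the 37 members. The median of 10 plasma cell markers, which include Derl3, Txndc5 and Xbp1 of the pathway, was 10.88 (MEKi 1), 5.21 (MEKi 2), 6.64 (vehicle 1) and 10.81 (vehicle 2), and MEKi 1 exceeded vehicle 1 in all 10. Jchain, which joins secreted antibodies, read 13.07, 5.50, 7.75 and 13.21. Ms4a1, which encodes the B cell protein CD20, read 12.21, 3.97, 4.15 and 11.61. The 10 T cell markers had medians of 9.84, 5.02, 5.86 and 9.79, and the 8 markers of high endothelial venules and lymph node stroma had 8.14, 4.01, 4.00 and 8.27. So all of these lymphoid lists and 25 members were higher in the same pair of arrays, MEKi 1 and vehicle 2. Macrophage markers (11 genes) had medians of 9.76, 10.47, 11.07 and 10.07, and fibroblast markers (10 genes) 8.29, 7.98, 9.66 and 8.94. The part of these cells in the values of the members was not tested.

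**Figure D4:**
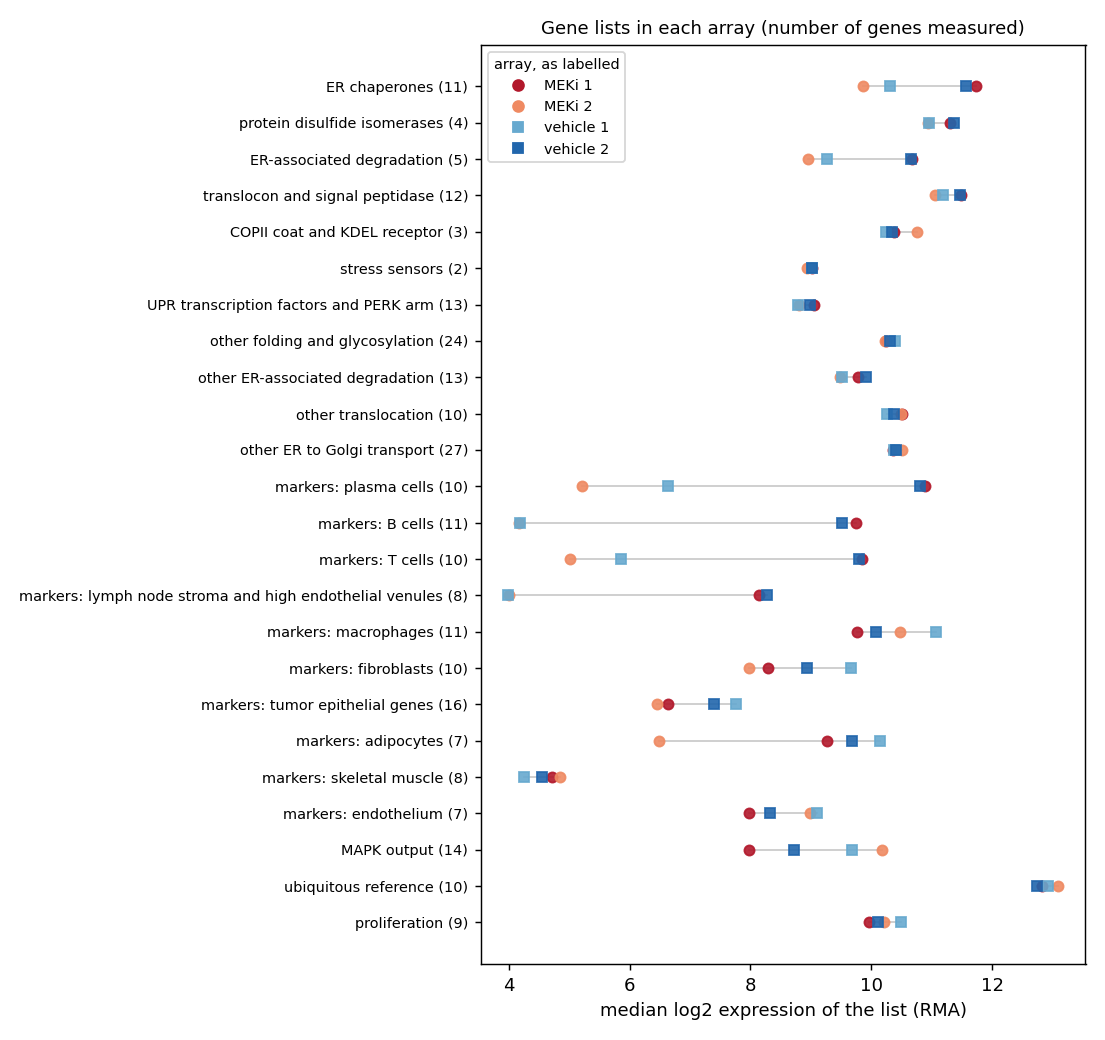
Median log2 expression (RMA, horizontal axis) of the role groups, the other pathway lists, cell type markers and check lists in each array (numbers of genes in parentheses; circles, MEKi; squares, vehicle). The ERAD members sit at 10.67 and 10.66 in MEKi 1 and vehicle 2 against 8.95 and 9.26 in the other arrays. Plasma cell markers sit at 10.88 and 10.81 against 5.21 and 6.64.

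Other lists moved otherwise. MAPK output genes, which are targets of the ERK kinases that MEK activates, had a median over 14 genes of 7.98 (MEKi 1), 10.17 (MEKi 2), 9.67 (vehicle 1) and 8.71 (vehicle 2). The arrays labelled MEKi held both the lowest and the highest of these medians. Proliferation genes (9 genes) lay between 9.96 and 10.48, and ubiquitous reference genes (10 genes) between 12.74 and 13.08.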

How the data were processed

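The authors deposited log2 expression values, which they had background corrected and quantile normalized by RMA in the AFFY package of R (no RMA version is named). RMA shrinks low signals, so differences near the floor are understated. Of 45141 probe sets, 104 controls were left out. Of the 45037 tested, 28898 carried 1 gene symbol in the platform annotation, 551 carried several and stayed without a name, and 15588 had none here. The gene table (GRCm38.p6) held the Entrez identifiers of 28689. Groups came from the labels. limma 3.58.1 in R 4.3.3 (lmFit, eBayes) was fitted over all probe sets and tested on simulated data. Promoter sequences are from RefSeq. Python 3.11.15, numpy 2.4.6, pandas 2.3.3 and matplotlib 3.10.9 made tables and figures.

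The members and lists were chosen with earlier results of these data known. All members get array values. The fold change and test are printed for Hspa5, Herpud1, Sec61b, Kdelr2, Atf6 and Ern1 and for the highest and lowest of each other role group, and pathway lists are named by their extremes. Alternatives were another threshold, variance models, a filter on dim probe sets, centring, a replicate block, each array left out and the mean of a gene's probe sets. Of 22 members with further probe sets (38), 10 had one of opposite sign by label and 4 had one of opposite sign in MEKi 1 minus vehicle 1 (Dnajc3, Ern1, Pdia6 and Ssr1).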

Additional observations from a re-analysis of the deposited data

How the results depend on the processing

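Calls of members, of other pathway genes and of all probe sets were 0 in each alternative run but one. Centred on tumor epithelial genes, 28973 of 45037 probe sets, 14 of 37 members and 56 of 87 other pathway genes were called. The member median by label was then 0.93 and that of MEKi 1 minus vehicle 1 was 1.56. This centring itself moves all genes by 1.03, and 28973 was also the count at an unadjusted p under 0.05. Under it Sdf2l1 (0.69), P4hb (0.92), Herpud1 (0.87), Edem1 (0.63), Sec61b (0.92), Sec11c (0.56) and Ern1 (0.69) turned positive. Centring on reference genes moved all genes by −0.12 and turned Hspa5 (−0.076), Pdia3 (−0.038), Edem2 (−0.090), Ostc (−0.051), Sec23b (−0.11) and Kdelr2 (−0.11) negative, and the mean of all probe sets did so for Ostc (−0.0088). With each array left out in turn, the member median ran from −0.39 to 0.22, with 0 calls in each. The differences by label then ran from −0.25 to 0.33 (Hspa5), −1.06 to 0.37 (Sdf2l1), −0.40 to 0.56 (Pdia3), −0.41 to 0.19 (P4hb), −1.05 to 0.74 (Herpud1), −1.88 to 1.10 (Edem1), −0.54 to 0.60 (Edem2), −0.50 to 0.29 (Sec61b), −1.70 to 0.77 (Sec11c), −0.18 to 0.32 (Ostc), −0.10 to 0.13 (Sec23b), −0.23 to 0.72 (Sec24d) and −0.36 to 0.38 (Kdelr2), while Atf6 and Ern1 kept their sign. The lone array of a label is assumed to vary like the other label. With the replicate number as a block, 0 members and 0 probe sets were called by limma (267 at an unadjusted p under 0.05); same-numbered arrays deviated in opposite ways (r = −0.764 across probe sets). The crossed pairing, chosen after seeing the data, also called 0 (1447 unadjusted). The cause of these changes was not tested. The 4 arrays cannot show differences smaller than the distances within a label.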
